A study of Arabidopsis thaliana with 20 samples.

Results

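Leaf senescence in Arabidopsis is controlled by a network of NAC transcription factors, and 8 genes of that network are described here across the groups of a PPD3 overexpression study. They were chosen by locus, and they and the related lists below were chosen with earlier results of these data known. The 8 are 4 NAC regulators and 4 genes expressed in senescing tissue, out of the 34262 genes counted. The regulators are NAP (AT1G69490), ORE1 (AT5G39610), ORS1 (AT3G29035) and JUB1 (AT2G43000). The others are the senescence-associated genes SAG12 (AT5G45890), SAG13 (AT2G29350) and SAG29 (AT5G13170) and the nuclease gene BFN1 (AT1G11190). All 8 passed the filter on low counts, which left 21703 genes to test.

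RNA was sequenced from 20 samples of aboveground tissue of bolting Col-0 plants, grown on soil in a 12-h photoperiod at 22 and 20 °C. PPD3-OX T+ plants carry a transgene that overexpresses PPD3, a plastid PsbP-domain protein, and were sampled as dwarf (n = 3) and normal (n = 3) plants. PPD3-OX null Gen1 plants are siblings of the T+ plants without the transgene and were sampled as dwarf plants (n = 3). Their progeny, PPD3-OX null Gen2, were dwarf (n = 5) or large (n = 3), and wild type (WT, n = 3) had no transgene. The study's description speaks of 3 replicates each, whereas the labels put 5 samples in Gen2 dwarf, and the 5 are used here. These groups are called T+ dwarf, T+ normal, Gen1 dwarf, Gen2 dwarf, Gen2 large and WT, and together hold 11 dwarf and 9 non-dwarf samples. Neither the transgene's promoter nor the number of lines, nor how many plants make up a sample, is stated in the sources used here. Samples of a group carry replicate labels, and the p-values below set differences between groups against the spread of such samples, estimated over all groups.

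As leaves age, cells dismantle chloroplasts, proteins and nucleic acids and export the nutrients. ORE1 and its paralog ORS1 promote this program, and ORE1 messenger RNA is cut at the direction of the microRNA miR164, which declines with age. NAP promotes it as well, partly by raising abscisic acid, while JUB1 delays it. SAG12 encodes a cysteine protease of late senescence, SAG13 a short-chain dehydrogenase that also responds to stress, SAG29 the sugar exporter SWEET15, and BFN1 a nuclease of senescence and of developmental cell death, including that of xylem. ORE1 binds the BFN1 promoter.

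The miR164 sequence and the best matching stretch in ORE1 and ORS1 are shown because the paralogs share this site but differed in their pattern over the groups. The microRNA is written as RNA with its seed, bases 2 to 8, in capitals, and the sites as DNA 5′ to 3′ on the gene's strand with capitals for bases that do not pair with it, counting G-U as unpaired.
ath-miR164a: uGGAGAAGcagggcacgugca
ORE1 site: CTcacgtgAcctgcttctccG
ORS1 site: CTcacgtTAcctActtctccG
The sequences are from RefSeq, build TAIR10.1. The ORE1 site lies in the coding sequence at chr5:15858797-15858817 on the minus strand and has 4 unpaired bases, 0 of them opposite the seed. The ORS1 site lies in the coding sequence at chr3:11034693-11034713 on the plus strand and has 6 unpaired bases, 0 opposite the seed. Among the other members the best stretch of SAG29 also has 6 unpaired bases, 1 of them opposite the seed. NAP, JUB1, SAG12 and BFN1 have 9 and SAG13 has 8, with 1 to 5 opposite the seed. The 3 MIR164 loci had 0 counts in all 20 samples, and mature microRNA was not measured here.

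The 300 bases upstream of NAP and ORE1 are shown because these were the 2 members with the most similar levels over the samples. Capitals mark CACG on either strand, a core of NAC binding motifs.
NAP upstream: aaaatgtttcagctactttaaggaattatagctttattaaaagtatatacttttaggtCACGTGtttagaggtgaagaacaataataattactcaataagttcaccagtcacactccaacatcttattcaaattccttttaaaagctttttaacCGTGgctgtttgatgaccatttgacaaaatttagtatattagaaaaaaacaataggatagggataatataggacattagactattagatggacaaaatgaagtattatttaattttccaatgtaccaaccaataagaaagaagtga
ORE1 upstream: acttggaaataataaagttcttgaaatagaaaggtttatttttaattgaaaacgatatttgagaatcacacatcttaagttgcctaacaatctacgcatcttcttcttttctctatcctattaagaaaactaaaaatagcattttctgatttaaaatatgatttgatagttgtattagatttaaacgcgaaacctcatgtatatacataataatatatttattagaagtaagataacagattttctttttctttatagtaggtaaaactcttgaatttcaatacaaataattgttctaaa
The NAP window is chr1:26121780-26122079 on the plus strand and the ORE1 window chr5:15859912-15860211 on the minus strand (TAIR10.1). The NAP window holds a G-box, CACGTG, 242 bases before the gene start, CACG on the opposite strand at 146, and the WRKY core TTGAC at 126. A G-box contains both CACG and the abscisic acid response core ACGTG on each strand. The ORE1 window holds none of the 4 motifs searched on both strands. Over the upstream windows of 27443 genes, CACGTG occurred in 7.09%, ACGTG in 25.6%, CACG in 50.5% and the WRKY core TTGAC in 50.4%. Among the 8 members these were found in 1, 3, 4 and 5 windows.

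Levels are in CPM, the count of a gene as a share of all gene counts times 1e6, scaled by edgeR's TMM factors. Gene counts came to 45728485 to 117753467 per sample, and a count of 0 allows up to 3 counts, which is 0.0246 to 0.0678 CPM by sample and covers counting error only. PPD3 had 381 to 812 CPM in the T+ samples and 92.4 to 148 CPM in the others, as labelled. WT 3 carries the ecotype label Col-1. Photosynthesis genes of the leaf made up 12312 to 31926 CPM (5 of 5 genes over 1 CPM), and root hair genes at most 0.0303 CPM. Of 8 floral organ genes 0 averaged over 1 CPM, and their sum was 1.11 to 5.08 CPM. In bulk tissue, fewer cells of a type and less RNA per cell cannot be told apart.

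The libraries WT 2 and T+ dwarf 3 stood apart within their groups for these genes. WT 2 was the highest of its 3 samples for 7 of 8 members, all but ORS1, and T+ dwarf 3 was the highest of its 3 for the same 7. Differences from WT and from T+ dwarf are therefore also given without both, an alternative chosen after their values were seen. T+ normal 1 stood apart on the first principal component of the most variable tested genes, at 54.3 against -27.3 to 27.8 for the other 19 samples. It had the lowest level of its group for 5 of 8 members.

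Per kilobase of exon and averaged over the 6 group means, SAG13 was the most abundant member at 33.0 CPM per kb. NAP followed at 7.73, ORE1 at 6.30, SAG12 at 3.79, ORS1 at 3.12, BFN1 at 2.67, JUB1 at 2.28 and SAG29 at 1.76 CPM per kb. JUB1 overlaps AT2G42990 on the opposite strand, and since the libraries are unstranded its counts may include reads of that gene.

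**Figure D1:**
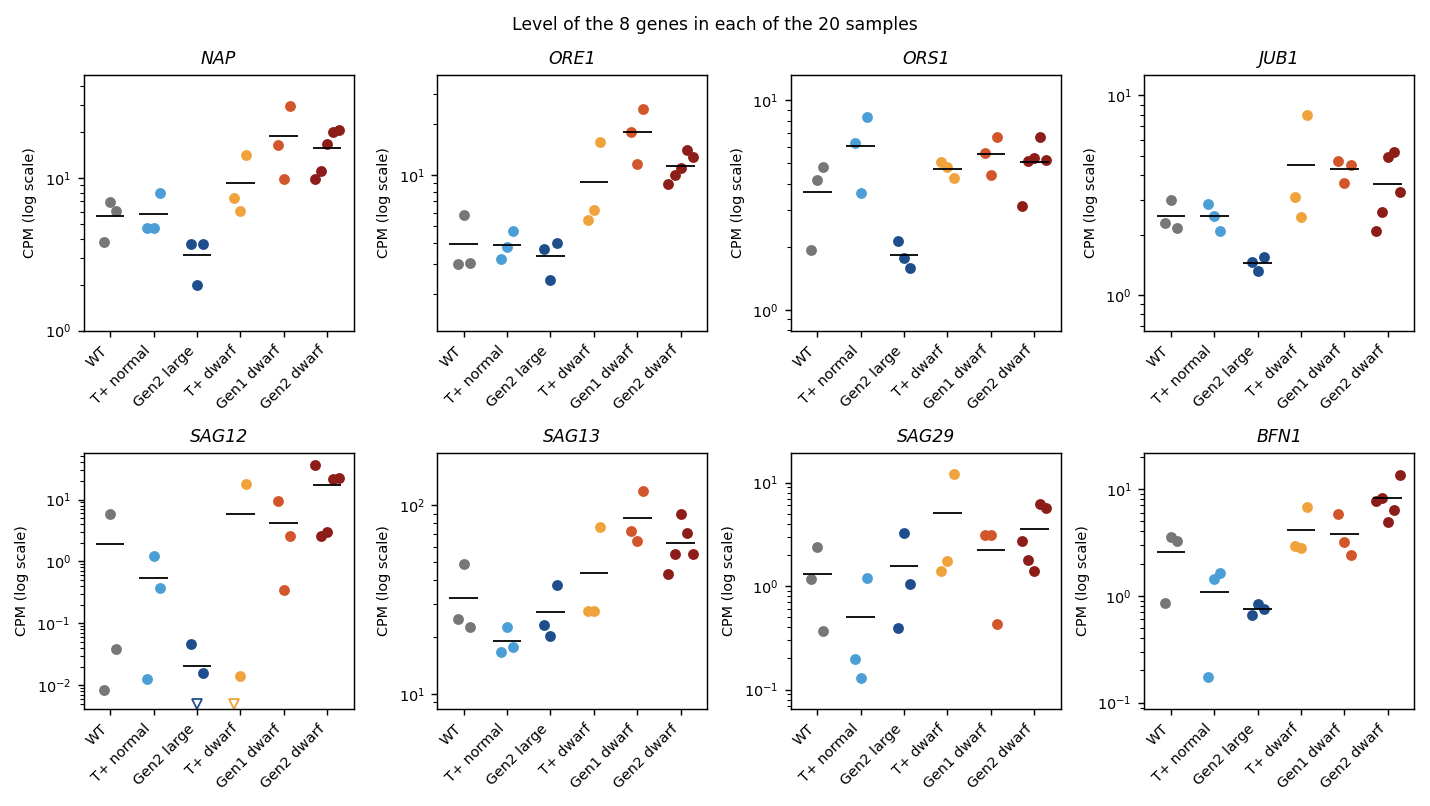
Level of the 8 genes in CPM on a log axis, 1 point per sample and a line at each group mean, with open triangles at the bottom for a count of 0. For ORE1 the 3 dwarf groups have means of 9.08 to 18.01 CPM against 3.35 to 3.94 CPM in the other groups, and for ORS1 the T+ normal mean of 6.04 CPM is the highest.

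NAP, on chromosome 1 from 26122080 to 26123514, was about as high in T+ normal as in WT and highest in the transgene-free dwarfs. Its level was 3.80, 6.93 and 6.05 CPM in WT 1 to 3, 4.72, 4.73 and 7.995 CPM in T+ normal, and 3.66, 1.99 and 3.69 CPM in Gen2 large. The dwarf samples had 7.39, 6.06 and 14.2 CPM in T+ dwarf, 16.5, 9.90 and 29.7 CPM in Gen1 dwarf, and 9.87, 11.1, 16.8, 20.0 and 20.6 CPM in Gen2 dwarf. Every Gen1 and Gen2 dwarf sample was above every non-dwarf sample, and T+ dwarf overlapped WT and T+ normal. Group means fell in the order Gen1 dwarf (18.7 CPM), Gen2 dwarf (15.7), T+ dwarf (9.22), T+ normal (5.81), WT (5.60) and Gen2 large (3.11), and of neighbours in it only WT and Gen2 large did not overlap. NAP rose in Gen2 dwarf over Gen2 large by 2.33 ± 0.41 on the log2 scale (SE, edgeR adjusted p = 0.00186) and in Gen1 dwarf over WT by 1.74 ± 0.42 (edgeR adjusted p = 0.0416). The second call ended without Gen1 dwarf 1 (edgeR adjusted p = 0.0892), Gen1 dwarf 3 (0.169), WT 1 (0.202) or WT 3 (0.0911), and the first held without any 1 of its 8 samples.

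ORE1, on chromosome 5 from 15858398 to 15859911, was the member most often called. Its level was 2.98, 5.81 and 3.04 CPM in WT, 3.20, 3.77 and 4.67 CPM in T+ normal, and 3.67, 2.43 and 3.97 CPM in Gen2 large. In dwarf plants ORE1 had 5.40, 6.27 and 15.6 CPM in T+ dwarf, 17.9, 11.7 and 24.4 CPM in Gen1 dwarf, and 8.82, 10.06, 11.01, 14.0 and 12.7 CPM in Gen2 dwarf. All 11 dwarf samples were above the other 9 samples except that T+ dwarf 1, at 5.40 CPM, lay under WT 2. The order of means was Gen1 dwarf (18.01 CPM), Gen2 dwarf (11.3), T+ dwarf (9.08), WT (3.94), T+ normal (3.88) and Gen2 large (3.35), and every pair of neighbours in it overlapped. ORE1 rose in Gen1 dwarf over WT by 2.19 ± 0.38 (edgeR adjusted p = 0.00686), in Gen2 dwarf over Gen2 large by 1.76 ± 0.35 (edgeR adjusted p = 0.00389) and in T+ dwarf over T+ normal by 1.23 ± 0.37 (edgeR adjusted p = 0.0320). Without T+ dwarf 3 the last difference was 0.59 (edgeR adjusted p = 0.246), and that call also ended without T+ normal 1 (0.110) or T+ normal 2 (0.0807). Without WT 1 the difference of Gen1 dwarf from WT was 2.02 (edgeR adjusted p = 0.0529).

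ORS1, on chromosome 3 from 11033665 to 11035308, did not follow ORE1 in the T+ plants. Its level was 1.92, 4.17 and 4.81 CPM in WT, 6.23, 3.61 and 8.29 CPM in T+ normal, and 2.12, 1.78 and 1.59 CPM in Gen2 large. In dwarf plants ORS1 had 5.06, 4.79 and 4.24 CPM in T+ dwarf, 5.61, 4.38 and 6.66 CPM in Gen1 dwarf, and 3.13, 5.11, 5.32, 6.67 and 5.21 CPM in Gen2 dwarf. T+ normal 1 and 3 were above all T+ dwarf samples, and all Gen2 large samples were below all Gen2 dwarf samples. The order of means was T+ normal (6.04 CPM), Gen1 dwarf (5.55), Gen2 dwarf (5.09), T+ dwarf (4.70), WT (3.63) and Gen2 large (1.83), with overlap between all neighbours. ORS1 rose in Gen2 dwarf over Gen2 large by 1.47 ± 0.30 (edgeR adjusted p = 0.00462) and differed by -0.36 ± 0.32 between T+ dwarf and T+ normal (edgeR adjusted p = 0.474, 95% interval -1.03 to 0.30). The test of the difference between these dwarf effects gave -1.83 ± 0.44 and missed the threshold in edgeR (adjusted p = 0.0560), and DESeq2 called it (adjusted p = 0.00288).

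JUB1, on chromosome 2 from 17880457 to 17882636, was lowest in Gen2 large. Its level was 2.29, 2.99 and 2.17 CPM in WT, 2.86, 2.49 and 2.08 CPM in T+ normal, and 1.47, 1.33 and 1.56 CPM in Gen2 large. The dwarf samples had 3.11, 2.46 and 7.95 CPM in T+ dwarf, 4.71, 3.63 and 4.48 CPM in Gen1 dwarf, and 2.09, 2.60, 4.91, 5.20 and 3.30 CPM in Gen2 dwarf. Gen2 large was below every other sample, and the T+ dwarf mean of 4.51 CPM rested on T+ dwarf 3, since it was 2.79 CPM without that library. After T+ dwarf the means were 4.27 CPM in Gen1 dwarf, 3.62 in Gen2 dwarf, 2.48 in WT and in T+ normal, and 1.45 in Gen2 large, and of neighbours only T+ normal and Gen2 large did not overlap. JUB1, which delays senescence, rose in Gen2 dwarf over Gen2 large by 1.32 ± 0.35 (edgeR adjusted p = 0.0179). The call ended without Gen2 large 1 (edgeR adjusted p = 0.0657), 2 (0.0728) or 3 (0.0609).

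SAG13, on chromosome 2 from 12600914 to 12602556, had the same order of the dwarf groups as ORE1. Its level was 25.1, 48.6 and 22.7 CPM in WT, 16.6, 22.7 and 17.7 CPM in T+ normal, and 23.04, 20.4 and 37.9 CPM in Gen2 large. In dwarf plants SAG13 had 27.5, 27.5 and 76.7 CPM in T+ dwarf, 73.0, 64.6 and 118.3 CPM in Gen1 dwarf, and 43.4, 55.4, 89.8, 71.6 and 55.4 CPM in Gen2 dwarf. Gen1 dwarf was above all non-dwarf samples, and of the non-dwarf samples only WT 2 reached into the range of Gen2 dwarf. The order of means was Gen1 dwarf (85.3 CPM), Gen2 dwarf (63.1), T+ dwarf (43.9), WT (32.1), Gen2 large (27.1) and T+ normal (19.0), with overlap between all neighbours. SAG13 rose in Gen2 dwarf over Gen2 large by 1.22 ± 0.38 (edgeR adjusted p = 0.0436). The call ended without any 1 Gen2 large library (edgeR adjusted p = 0.154, 0.156 and 0.0524 without 1, 2 and 3) and without Gen2 dwarf 2, 3, 4 or 5.

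SAG12, on chromosome 5 from 18613239 to 18614963, ranged from 0 to 3547 counts. Its counts were 1, 573 and 3 in WT, 1, 96 and 33 in T+ normal, 5, 0 and 1 in Gen2 large and 0, 1 and 1512 in T+ dwarf. Gen1 dwarf had 1018, 33 and 236 counts and Gen2 dwarf 3547, 115, 278, 1256 and 2530. In CPM these were 0.347 to 9.63 in Gen1 dwarf and 2.60 to 35.7 in Gen2 dwarf, so all 8 transgene-free dwarf samples were above the floor of 3 counts. The Gen2 large samples stood at 0.0461, 0 and 0.0154 CPM and the T+ dwarf samples at 0, 0.0141 and 17.6 CPM. In the order of means, Gen2 dwarf (17.1 CPM), T+ dwarf (5.88), Gen1 dwarf (4.19), WT (1.94), T+ normal (0.545) and Gen2 large (0.0205), all neighbours overlapped. Without WT 2 and T+ dwarf 3 the means of WT and T+ dwarf were 0.0233 and 0.00703 CPM. SAG12 was called in Gen2 dwarf over Gen2 large at a fitted log2 difference of 9.53 ± 3.03 (edgeR adjusted p = 0.0490), a size that depends on the 6 counts of Gen2 large. The call ended without any 1 of the 8 samples, with an edgeR adjusted p of up to 0.144 (without Gen2 large 3).

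SAG29, on chromosome 5 from 4181042 to 4183354, varied widely within groups. Its level was 1.17, 2.40 and 0.372 CPM in WT, 0.199, 0.130 and 1.196 CPM in T+ normal, and 0.397, 3.29 and 1.05 CPM in Gen2 large. The dwarf samples had 1.40, 1.73 and 12.1 CPM in T+ dwarf, 3.09, 3.11 and 0.427 CPM in Gen1 dwarf, and 2.75, 1.79, 1.41, 6.27 and 5.65 CPM in Gen2 dwarf. Of the pairs compared, T+ dwarf and T+ normal did not overlap, at a log2 difference of 3.30 ± 1.14 that missed the threshold in edgeR (adjusted p = 0.0622) and was called by DESeq2 (adjusted p = 0.0129). Without T+ dwarf 3 that difference was 1.61 (edgeR adjusted p = 0.361) and the T+ dwarf mean 1.56 CPM, below those of Gen2 dwarf, Gen1 dwarf and Gen2 large. Without T+ normal 3 edgeR called it (4.93, adjusted p = 0.0367). Means were 5.07 CPM in T+ dwarf, 3.57 in Gen2 dwarf, 2.21 in Gen1 dwarf, 1.58 in Gen2 large, 1.31 in WT and 0.508 in T+ normal, with overlap between all neighbours. Gen2 dwarf differed from Gen2 large by 1.17 ± 0.97 (edgeR adjusted p = 0.443, 95% interval -0.87 to 3.22).

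BFN1, on chromosome 1 from 3750066 to 3752780, was highest in Gen2 dwarf. Its level was 0.854, 3.56 and 3.22 CPM in WT, 0.174, 1.43 and 1.64 CPM in T+ normal, and 0.655, 0.844 and 0.756 CPM in Gen2 large. The dwarf samples had 2.89, 2.77 and 6.73 CPM in T+ dwarf, 5.77, 3.18 and 2.40 CPM in Gen1 dwarf, and 7.73, 8.18, 4.91, 6.39 and 13.6 CPM in Gen2 dwarf. All dwarf samples were above all T+ normal and Gen2 large samples, and WT 2 and 3 lay within the range of T+ dwarf and Gen1 dwarf. Means were 8.16 CPM in Gen2 dwarf, 4.13 in T+ dwarf, 3.78 in Gen1 dwarf, 2.54 in WT, 1.08 in T+ normal and 0.752 in Gen2 large, with overlap between all neighbours. BFN1 rose in Gen2 dwarf over Gen2 large by 3.44 ± 0.64 (edgeR adjusted p = 0.00284), which held without any 1 of the 8 samples, and in T+ dwarf over T+ normal by 1.93 ± 0.64 (edgeR adjusted p = 0.0494). The second call ended without any 1 of the 6 samples (edgeR adjusted p = 0.0516 without T+ dwarf 2 to 0.193 without T+ dwarf 3).

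Xylem marker genes were higher where BFN1 rose, and in Gen1 dwarf against WT neither BFN1 nor any of 7 xylem genes was called. The summed level of 7 xylem genes, all over 1 CPM, was 103 to 112 CPM in T+ dwarf, 75.2 to 80.4 in Gen1 dwarf and 96.9 to 142 in Gen2 dwarf. In the non-dwarf groups it was 60.1 to 111 CPM for WT, 43.4 to 56.9 CPM for Gen2 large and 23.1 to 77.9 CPM for T+ normal. In Gen2 dwarf over Gen2 large 6 of the 7 rose, where 8.67% of all genes rose (median log2 difference 1.24), and in T+ dwarf over T+ normal IRX1, IRX3 and IRX5, 3 of 7, rose, where 7.21% of all genes rose (median 1.00). In Gen1 dwarf against WT the xylem median was -0.32 while BFN1 differed by 0.58 ± 0.61 (edgeR adjusted p = 0.661), and all 3 Gen1 dwarf sums lay under WT 2 and WT 3. T+ normal 1, with the lowest BFN1, also had the lowest xylem sum, and WT 1 the lowest of both in WT. T+ dwarf 3 had the highest of both in T+ dwarf. In Gen1 dwarf the orders were opposite, as Gen1 dwarf 1 had the highest BFN1 and the lowest sum, and Gen1 dwarf 3 the reverse. Gen2 dwarf 5 had the highest BFN1 of its group, 13.6 CPM, and the lowest sum, 96.9 CPM. The part of xylem in the BFN1 differences was not tested.

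Set against WT, the dwarf groups differed in how many members were called. T+ dwarf, dwarf plants with the transgene, had 0 of 8 members called by edgeR or DESeq2. Of all genes, 0.0507% were called by edgeR. In that comparison 2 members, ORE1 and JUB1, had an unadjusted edgeR p under 0.05, as did 2577 of all 21703 genes tested. All 8 had a higher fitted level in T+ dwarf with all libraries in, at a median log2 difference of 0.79 against -0.01 over all genes, and for each of them the groups overlapped. Without WT 2 and T+ dwarf 3, ORE1 differed by 0.97 ± 0.30 (edgeR adjusted p = 0.187), SAG13 by 0.22 ± 0.34 (edgeR adjusted p = 0.810) and JUB1 by 0.34 ± 0.35 (edgeR adjusted p = 0.693). SAG12 then had at most 3 counts in each of the 4 samples, so its direction rested on the libraries left out. Without T+ dwarf 3 alone SAG13 differed by -0.21.

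Gen1 dwarf, dwarf siblings without the transgene, had 2 of 8 members higher than WT, ORE1 and NAP, where 1.62% of all genes were called higher. DESeq2 called SAG13 as well (adjusted p = 0.0420). For ORE1, NAP, JUB1 and SAG13 every Gen1 dwarf sample was above every WT sample, and the JUB1 difference of 0.78 ± 0.37 and the SAG13 difference of 1.41 ± 0.41 missed the threshold in edgeR (adjusted p = 0.281 and 0.0880). Over all genes, lack of overlap between groups was not counted in this or the other comparisons. Counts of members without overlap therefore have no baseline. The median log2 difference of the 8 was 0.95 against 0.00 over all genes. Without WT 1 no member was called by edgeR, and without WT 2 SAG13 was called as well. Without WT 2 and T+ dwarf 3, ORE1 (2.57, edgeR adjusted p = 0.000492), NAP (1.92, edgeR adjusted p = 0.0325) and SAG13 (1.83, edgeR adjusted p = 0.00787) were called.

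Gen2 dwarf, the next generation, had 0 of 8 members called against WT by edgeR, where 0.0968% of all genes were called. DESeq2 called 2, ORE1 (1.52, adjusted p = 0.000910) and NAP (1.48, adjusted p = 0.00468). With SAG13 and BFN1, 4 members had an unadjusted edgeR p under 0.05, as did 2833 of all 21703 genes tested. ORE1, NAP and BFN1 did not overlap between the groups, which was not counted over all genes. The median log2 difference was 1.46 against 0.01 over all genes. Without WT 2 and T+ dwarf 3 edgeR called ORE1 (1.91 ± 0.28, adjusted p = 0.0117). The 3 dwarf groups share the WT libraries in these comparisons.

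Neither non-dwarf group had a member called against WT in edgeR or DESeq2. T+ normal had 0 of 8 where 1.34% of all genes were called, and 1 member, ORS1, had an unadjusted edgeR p under 0.05. The ORS1 difference was 0.74 ± 0.32 (edgeR adjusted p = 0.261). An unadjusted edgeR p under 0.05 was found there for 3349 of all 21703 genes tested. Gen2 large had 0 of 8 where 0.963% of all genes were called. In Gen2 large 2 members, ORS1 and BFN1, had an unadjusted edgeR p under 0.05, as did 3288 of all 21703 genes tested. NAP, JUB1 and BFN1 did not overlap, each lower in Gen2 large, and the median log2 difference was -0.81 against 0.00 over all genes. BFN1 differed by -1.75 ± 0.64 (edgeR adjusted p = 0.203, 95% interval -3.11 to -0.40), and ORS1 by -0.98 ± 0.32 (edgeR adjusted p = 0.156), which was called without WT 1 (adjusted p = 0.0431).

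**Figure D2:**
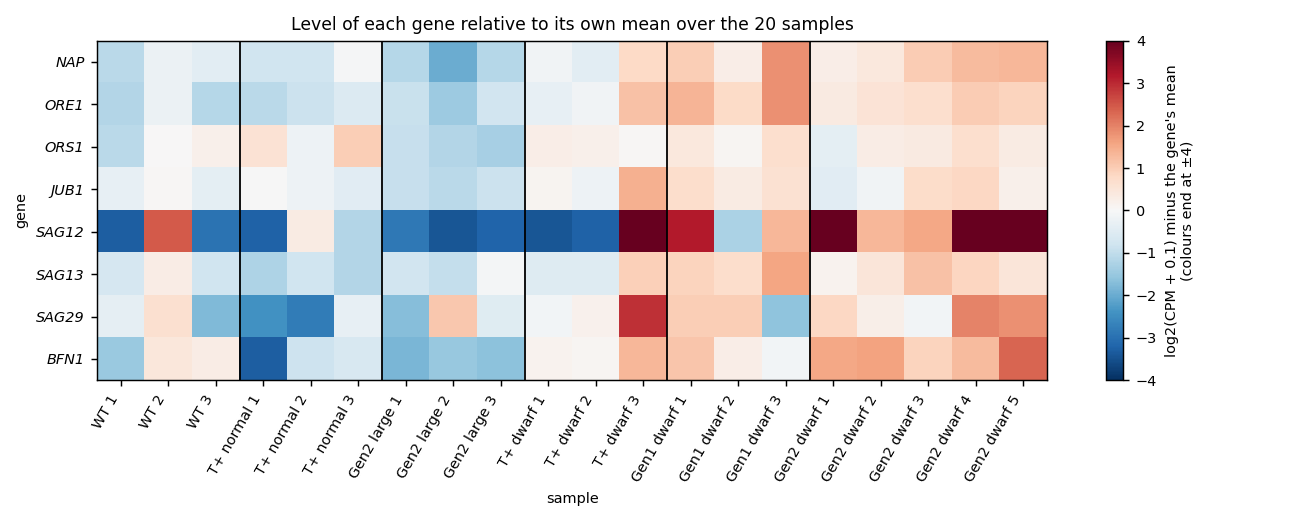
Colour shows log2(CPM + 0.1) of each gene minus its mean over the 20 samples, with samples grouped and colours ending at ±4 (the highest value is 5.07, in SAG12). WT 2 and T+ dwarf 3 stand above the other samples of their groups for 7 of 8 genes, and the row of ORS1 is low in Gen2 large and high in 2 T+ normal samples.

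Dwarf and non-dwarf plants of the same genotype gave 9 calls in 2 comparisons. In Gen2, without the transgene, 7 of 8 members were higher in dwarf than in large plants, all but SAG29, where 8.67% of all genes were called higher. Each of the 7 was without overlap between 5 dwarf and 3 large samples, which was not counted over all genes. The median log2 difference of the 8 was 1.61 against 0.00 over all genes. NAP, ORE1, ORS1 and BFN1 were called without any 1 of the 8 samples. JUB1, SAG12 and SAG13 were not called without any 1 of the Gen2 large libraries, which left 4 calls.

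In T+, with the transgene, 2 of 8 members, ORE1 and BFN1, were higher in dwarf than in normal plants, where 7.21% of all genes were called higher. DESeq2 called SAG13 and SAG29 as well. ORE1, BFN1, SAG13 and SAG29 did not overlap, which was not counted over all genes. The median log2 difference was 1.22 against 0.01 over all genes, with 7 of 8 higher and ORS1 lower in dwarf plants. Without T+ dwarf 3 the SAG13 difference was 0.53 (edgeR adjusted p = 0.380), and SAG12, at 0 and 1 counts in the remaining T+ dwarf samples, lay on average below T+ normal. Without T+ dwarf 3, T+ normal 1 or T+ normal 2 no member was called, while 1934 or more genes of all were called in each fit without 1 sample.

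The test of whether the dwarf effect differed between T+ and Gen2 called 0 of 8 members in edgeR, where 0.654% of all genes were called. DESeq2 called ORS1 and NAP, the 2 with an unadjusted edgeR p under 0.05, both with a smaller effect in T+. Such a p was found for 2726 of all 21703 genes tested. NAP differed by -1.67 ± 0.57 (edgeR adjusted p = 0.197, DESeq2 adjusted p = 0.0465), SAG29 by 2.13 ± 1.41 (edgeR adjusted p = 0.587), and ORE1 by -0.53 ± 0.49 (edgeR adjusted p = 0.725, 95% interval -1.56 to 0.50). Because of the ORS1 values, T+ normal was also set against Gen2 large, a comparison added after they were seen and so a description. ORS1 was higher there by 1.72 ± 0.33 (edgeR adjusted p = 0.0278), the 1 member of 8 called, where 0.276% of all genes were called higher. The call ended without T+ normal 1 or 3 or any Gen2 large library (edgeR adjusted p of up to 0.164, without T+ normal 3).

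**Figure D3:**
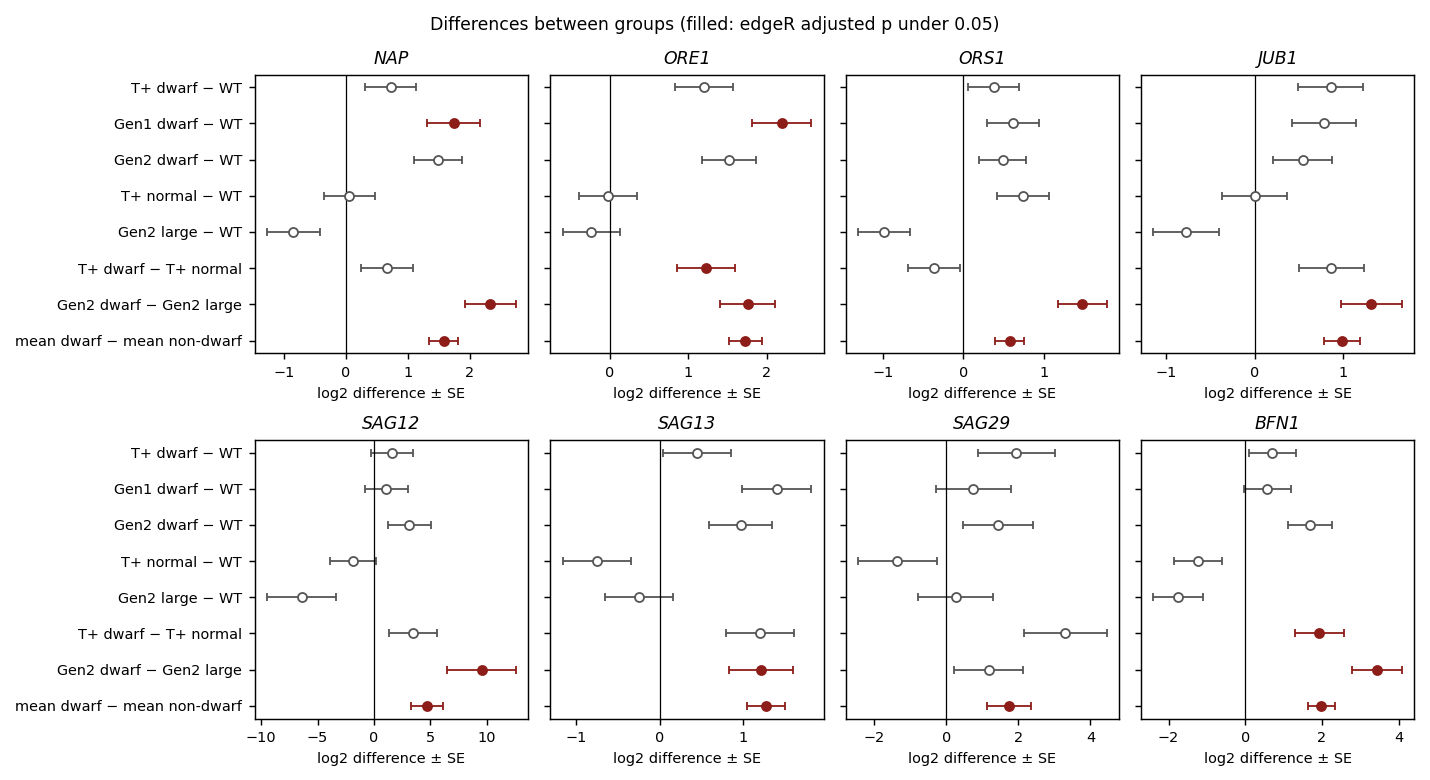
Log2 differences with their standard errors for the 8 genes in 8 comparisons, filled where the edgeR adjusted p was under 0.05, with a separate axis range per gene. In Gen2 dwarf against Gen2 large all but SAG29 are filled, and ORS1 lies at 1.47 there and at -0.36 in T+ dwarf against T+ normal.

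Dwarf groups were also compared with each other. Gen1 dwarf against T+ dwarf, siblings without and with the transgene, had 0 of 8 members called by edgeR or DESeq2, where 0.00461% of all genes were called. NAP (1.02 ± 0.41), ORE1 (0.99 ± 0.36) and SAG13 (0.96 ± 0.41) had an unadjusted edgeR p under 0.05, at adjusted p = 0.859 to 0.961. The unadjusted p was under 0.05 for 1052 of all 21703 genes tested. Gen2 dwarf against Gen1 dwarf had 0 of 8 called by edgeR or DESeq2, where 0.235% of all genes were called. Of the members ORE1 alone had an unadjusted edgeR p under 0.05 (-0.67 ± 0.32, edgeR adjusted p = 0.539). Among all 21703 genes tested 2002 had such an unadjusted p. BFN1 differed by 1.11 ± 0.56 between Gen2 dwarf and Gen1 dwarf (edgeR adjusted p = 0.578, 95% interval -0.07 to 2.29).

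Over all groups, the mean of the 3 dwarf groups was set against the mean of the 3 non-dwarf groups, a contrast that uses the same samples as those above. All 8 members were higher in the dwarf groups, where 17.8% of all genes were called higher. The log2 differences were 1.72 ± 0.21 for ORE1, 1.58 ± 0.24 for NAP, 1.28 ± 0.23 for SAG13 and 1.98 ± 0.36 for BFN1. They were 0.99 ± 0.21 for JUB1, 0.57 ± 0.18 for ORS1, 1.74 ± 0.61 for SAG29 and 4.70 ± 1.39 for SAG12. The edgeR adjusted p ran from 1.93e-05 for ORE1 to 0.0365 for SAG29. Without T+ dwarf 3 SAG12 (1.51, edgeR adjusted p = 0.807) and SAG29 (edgeR adjusted p = 0.123) were not called, and without WT 2 as well SAG12 had 3.67 (edgeR adjusted p = 0.532). The SAG29 call also ended without 1 of 10 other samples, T+ normal 1 or 2, Gen1 dwarf 1 or 2, Gen2 dwarf 4 or 5, Gen2 large 1 or 3 and WT 1 or 3 (edgeR adjusted p = 0.0506 to 0.0696). Any difference among the 6 groups was called for 6 of 8 members, not for SAG12 (edgeR adjusted p = 0.115) or SAG29 (edgeR adjusted p = 0.216), where 21.2% of all genes were called. DESeq2 called SAG12 too (adjusted p = 0.0435).

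The members varied together to different degrees. Over the 20 samples, the correlation of log2 CPM between NAP and ORE1 was r = 0.936, and that between ORE1 and SAG13 was 0.919. After each sample's group mean was taken off, they were 0.869 and 0.856. By its median r of 0.410 with the other 7, ORS1 was the least like them, with r from 0.0463 (SAG29) to 0.710 (NAP) and 0.539 with ORE1. For SAG29 the median was 0.499 and the range 0.0463 to 0.655. These values share libraries and, before the group means are removed, group differences, so they are descriptions.

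Of all tested genes, WRKY75, a WRKY factor that promotes senescence, was the most like ORE1 (r = 0.963 over 20 samples), followed by AT4G32250 (0.955) and GLR1.3 (0.949). CYP71B3 (0.936), ORE1 and AT3G13950 (0.934) were the most like NAP. TPS8 (0.934), AT3G09020 (0.908) and FUT4 (0.888) were the most like ORS1, and PIRL2 (0.934), PARG2 (0.930) and CRK3 (0.924) the most like JUB1. SBT3.5 (0.942), AT1G68620 (0.932) and AT4G01870 (0.931) were the most like SAG13, and AT1G80165 (0.918), RABA4C (0.897) and AT1G08310 (0.885) the most like SAG12. AT1G17030 (0.940), the vacuolar processing enzyme gene ALPHA-VPE (0.926) and AT1G63295 (0.912) were the most like BFN1. For SAG29 the values were lower, at 0.790 for AT4G22960, 0.782 for PUB49 and 0.779 for AT5G06775.

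Other regulators of senescence were read from a list of 33, of which 30 passed the filter. In Gen2 dwarf over Gen2 large 14 of 30 rose and 0 fell, where 8.67% of all genes rose and 4.79% fell (median log2 difference 0.50, against 0.00 over all genes). ANAC055 (3.27 ± 0.87, edgeR adjusted p = 0.0215), WRKY75 (2.19 ± 0.52, edgeR adjusted p = 0.0120) and ANAC087 (1.87 ± 0.36, edgeR adjusted p = 0.00308) had the largest differences. ANAC055 is a NAC factor of jasmonate and abscisic acid response. In T+ dwarf over T+ normal 7 of 30 rose and 1 fell, where 7.21% of all genes rose and 7.79% fell (median 0.40, against 0.01 over all genes). ANAC019 (1.498 ± 0.22), a close relative of ANAC055, ANAC032 (1.22 ± 0.25) and ANAC016 (1.204 ± 0.26) rose most, and EIL1, an ethylene signalling factor, fell by 0.59 on the log2 scale. Those 4 had an edgeR adjusted p of 0.000659 to 0.00549.

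Against WT, 0 to 3 of these regulators were called in each group. In Gen1 dwarf 3 of 30 were higher, where 1.62% of all genes were, ANAC047 (2.08 ± 0.32, edgeR adjusted p = 0.00347), ANAC019 (2.01 ± 0.22, edgeR adjusted p = 0.000281) and RD26 (1.02 ± 0.22, edgeR adjusted p = 0.0204), and in Gen2 dwarf 1 was, ANAC047 (1.65 ± 0.30, edgeR adjusted p = 0.0370), where 0.0599% of all genes were. T+ dwarf had 0 of 30 called by edgeR or DESeq2, with 5 at an unadjusted edgeR p under 0.05. Over all 21703 genes tested, 2577 had such a p in T+ dwarf. In Gen2 large 3 of 30 were lower, where 0.843% of all genes were, ANAC032 (-1.25 ± 0.25), ANAC016 (-1.16 ± 0.26) and ATAF2 (-0.91 ± 0.19), at edgeR adjusted p = 0.0244 to 0.0427. In T+ normal 1 was lower, ANAC032 (-1.36 ± 0.25, edgeR adjusted p = 0.0129), where 0.802% of all genes were.

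Targets of these factors and other senescence-associated genes were read from a list of 30, all tested. In Gen2 dwarf over Gen2 large 12 of 30 rose and 0 fell, against the same 8.67% and 4.79% of all genes (median 0.55, against 0.00 over all genes). The senescence ribonuclease gene RNS3 (2.93 ± 0.59, edgeR adjusted p = 0.00449), the asparagine synthetase gene DIN6 (2.36 ± 0.70, edgeR adjusted p = 0.0365) and SAG14 (1.68 ± 0.21, edgeR adjusted p = 0.000229) rose most. In T+ dwarf over T+ normal 14 of 30 rose and 2 fell, against 7.21% and 7.79% of all genes (median 0.48, against 0.01 over all genes), led by the ethylene synthesis gene ACS2 (2.66 ± 0.61), DIN6 (2.29 ± 0.73) and RNS3 (2.19 ± 0.61). NYC1, a chlorophyll b reductase gene, fell by 0.93 and DWF4, a brassinosteroid synthesis gene that JUB1 represses, fell by 0.57 on the log2 scale. JUB1 itself was not called in that comparison (0.86 ± 0.37, edgeR adjusted p = 0.121). In Gen1 dwarf 5 of 30 were higher than in WT, where 1.62% of all genes were, with ACS2 (2.40 ± 0.59), SEN1 (1.64 ± 0.38) and SAG14 (1.27 ± 0.22) ahead. T+ dwarf had 0 called against WT by edgeR or DESeq2, with 8 at an unadjusted edgeR p under 0.05. Gen2 dwarf had 0 called against WT by edgeR and 3 by DESeq2, with 12 at an unadjusted edgeR p under 0.05. Over all 21703 genes tested, 2577 in T+ dwarf and 2833 in Gen2 dwarf had such an unadjusted p.

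The NAP targets SAG113, a phosphatase gene, and AAO3, an abscisic acid synthesis gene, are given as a pair chosen after their values were seen. In Gen2 dwarf against Gen2 large, where NAP rose, SAG113 differed by 0.04 ± 0.30 (edgeR adjusted p = 0.946) and AAO3 by 0.19 ± 0.10 (edgeR adjusted p = 0.211). In T+ dwarf over T+ normal, where NAP was not called (0.67 ± 0.42, edgeR adjusted p = 0.302), SAG113 rose by 1.67 ± 0.34 (edgeR adjusted p = 0.00386) and AAO3 by 0.42 ± 0.11 (edgeR adjusted p = 0.0181). The difference between these dwarf effects was 1.63 ± 0.45 for SAG113 (edgeR adjusted p = 0.105) and 0.22 ± 0.15 for AAO3 (edgeR adjusted p = 0.589). SAG113 was lower in T+ normal than in WT (-1.42 ± 0.34, edgeR adjusted p = 0.0482).

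**Figure D4:**
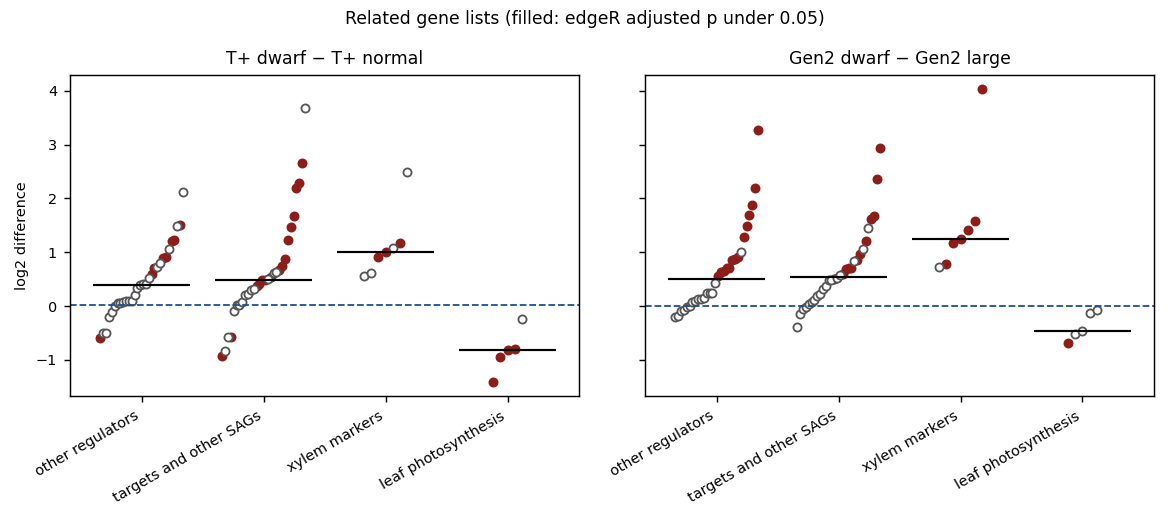
Log2 difference of each tested gene in 4 related lists for 2 comparisons, filled where the edgeR adjusted p was under 0.05, with a line at each list's median and a dashed line at the median of all genes. Medians of the regulators are 0.40 and 0.50 and those of the targets 0.48 and 0.55, while leaf photosynthesis lies at -0.81 and -0.47.

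Of 5 leaf photosynthesis genes, 4 fell in T+ dwarf against T+ normal, where 7.79% of all genes fell (median -0.81). In Gen2 dwarf against Gen2 large 1 fell, the Rubisco small subunit gene RBCS1A, where 4.79% of all genes fell (median -0.47). Against WT, 0 of 5 fell in T+ dwarf, Gen1 dwarf or Gen2 dwarf (medians -0.23, -0.31 and -0.14). Of all genes 0.0184%, 0.396% and 0.0369% fell there. In T+ normal against WT 1 rose, RBCS2B, where 0.534% of all genes rose (median 0.65). In T+ normal against Gen2 large the median of these genes was 0.28, beside a member median of 0.65. Of 8 floral organ genes, at levels that averaged under 1 CPM, 4 were called in T+ dwarf against T+ normal. AP1, AP3 and PI were higher and AG lower, where 7.21% of all genes rose and 7.79% fell. The summed level of the 8 was 5.08 CPM in T+ dwarf 3, against 1.87 and 2.32 CPM in T+ dwarf 1 and 2. It was 1.34 to 1.98 CPM in T+ normal and 1.96 to 3.15 CPM in Gen1 dwarf. Gen2 dwarf had 1.11 to 2.26 CPM and Gen2 large 1.86 to 3.45 CPM. The sums of WT 1, WT 2 and WT 3 were 2.11, 1.46 and 1.24 CPM. In Gen2 dwarf against Gen2 large AG, 1 of 8, was lower, where 4.79% of all genes fell. These marker genes are named after their values were seen. Their part in the members' differences was not tested.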

How the data were processed

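RNA of aboveground tissue was sequenced in 20 samples. The authors deposited raw counts for each gene in each sample. The submitters' processing notes name Trim Galore 0.4.1, STAR 2.7.0a and the TAIR10 build. Libraries were TruSeq RNA v2, read as 100-bp pairs, per the labels' protocols. Which program and annotation release counted the reads, and whether strand was used, is not stated in the sources used here. Lines without a gene, 0.776 to 1.14% (no feature) and 0.264 to 0.360% (ambiguous) of gene counts, entered neither the library sizes nor any test.

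Counts were filtered with filterByExpr (minimum count 10), scaled by TMM (factors 0.912 to 1.05) and fitted in edgeR 4.0.16 under R 4.3.3, with 1 term per group and robust quasi-likelihood tests. The p-values were adjusted by Benjamini-Hochberg across the 21703 genes tested, and a gene is called under 0.05. Standard errors come from the quasi-likelihood F, with 95% intervals on its degrees of freedom. DESeq2 1.42.0 was an alternative. Others were RLE scaling, no filter, a replicate block, only the groups compared and each sample left out. The fit was tested on simulated data.

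All members are named, with at most 3 genes in each direction from a related list and the 3 likest genes per member. The members and lists were chosen with earlier results of these data known. Correlations used log2 CPM with a prior count of 2. Counts of samples within a group differed beyond sampling noise (chi-square per gene 35.3 to 203), so none was treated as a duplicate. The labels name no batch. Coordinates, upstream windows and microRNA sequences are from RefSeq's TAIR10.1. Protein sequences were not used here.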

Additional observations from a re-analysis of the deposited data

How the results depend on the processing

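All 8 members kept the sign of every called difference under each alternative. RLE scaling gave the same count of members called in all 13 comparisons. Without the filter 1 member was called in Gen1 dwarf against WT and 1 in T+ dwarf against T+ normal, 5 in place of 7 in Gen2 dwarf against Gen2 large (SAG12 and SAG13 ended) and 7 in place of 8 for the mean of the dwarf groups (SAG29 ended). With only the groups compared in the fit these were 1 and 0, and T+ normal against Gen2 large had 0. DESeq2 called 2 in Gen2 dwarf against WT, 4 in T+ dwarf against T+ normal and 2 in the difference of dwarf effects. Without WT 2 and T+ dwarf 3, chosen after seeing the data, 1 was called in Gen2 dwarf against WT and 0 in T+ dwarf against T+ normal.

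Counts over all genes moved more. DESeq2 called more than edgeR in each comparison with WT: 122 against 11 for T+ dwarf, 1155 against 290 for T+ normal, 1143 against 437 for Gen1 dwarf, 367 against 21 for Gen2 dwarf and 743 against 209 for Gen2 large. It called 45 against 1 for Gen1 dwarf and T+ dwarf, 348 against 51 for Gen2 and Gen1 dwarf, 639 against 142 for the difference of dwarf effects and 371 against 68 for T+ normal and Gen2 large. With only the groups compared, edgeR called 7, 56, 254, 4 and 122 genes in the comparisons with WT, in the same order, 2036 against 3255 in T+ dwarf and T+ normal, 31 in Gen2 and Gen1 dwarf and 0 in Gen1 dwarf and T+ dwarf. Without WT 2 and T+ dwarf 3 the counts against WT were 28, 34, 807, 47 and 25, and 8 in Gen1 dwarf and T+ dwarf.

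With each sample left out in turn, the count was 0 to 3 in Gen1 dwarf against WT and in T+ dwarf against T+ normal, and 4 to 6 in Gen2 dwarf against Gen2 large. It was 0 to 1 in Gen2 large against WT, in the difference of dwarf effects and in T+ normal against Gen2 large. It was 6 to 8 for the mean of the dwarf groups, 5 to 7 for any difference, and 0 in the other 5 comparisons.

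The labels number the samples within each group, with 4 and 5 in Gen2 dwarf alone, but nothing says that a number marks a shared tray or day. Deviations of same-numbered samples from their group means had a median r of 0.0237 over 45 pairs, 8 of them over 0.1. Pairs with different numbers had a median r of -0.00753 over 120 pairs, 22 of them over 0.1. Values of same-numbered pairs ran from -0.438 to 0.387, so whether some groups shared a tray or day cannot be told from these medians. With the replicate number as a block, 1 member was called in T+ dwarf against T+ normal. The block left 4 called in Gen2 dwarf against Gen2 large (JUB1, SAG12 and SAG13 ended) and 6 for the mean of the dwarf groups (SAG12 and SAG29 ended). Over all genes it gave 1356 calls against 2920 in Gen2 dwarf against Gen2 large, and 7 and 4 for T+ dwarf and Gen2 dwarf against WT. It gave 0 for Gen2 and Gen1 dwarf, 93 for the difference of dwarf effects and 110 for T+ normal and Gen2 large. In this fit Gen2 dwarf 4 and 5 each take up a block term of their own and add nothing to the comparisons of Gen2 dwarf. Fewer calls there therefore cannot tell a shared tray or day from the loss of these samples.

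Depth limits SAG12 most, which had 5 or fewer counts in 8 of the 20 samples.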
